A study of Homo sapiens with 16 samples.

Results

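The response to loss of MYBL1 was compared gene by gene between U2OS, a human osteosarcoma line, and HCT116, a human colorectal carcinoma line. The genes compared were the 13472 that the authors' deposited tables list for siMYBL1 against siCtrl in both lines, out of 14763 listed in U2OS, 17323 listed in HCT116 and 19315 listed in any of the 6 tables of the series. The 4 groups were U2OS with small interfering RNA (siRNA) against MYBL1, U2OS with a non-targeting siRNA (siCtrl), HCT116 with siMYBL1 and HCT116 with siCtrl, each with 2 libraries, which is 8 of the 16 libraries. All cells were thus transfected with an siRNA, and RNA was taken after 48 hours and sequenced in pairs of reads. Neither the siRNA sequences nor the number of duplexes per target is given in the sources used here. No library enters both tables, so the difference of the log2 fold changes (siMYBL1 over siCtrl), U2OS minus HCT116, was tested against the root of the summed squared standard errors (SE). A positive difference means a higher response in U2OS.

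MYBL1 (A-MYB) is a transcription factor of the MYB family, best known for driving meiotic genes in male germ cells. Its relative MYBL2 (B-MYB) is expressed widely in dividing cells and partners with MuvB, a protein complex that activates genes needed in G2 and mitosis. When MuvB instead carries the pocket proteins and E2F4, it forms DREAM, which represses the same genes in resting cells.

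The tables hold 1 averaged value per gene and no values per library, so the depth of each library is unknown and no spread between libraries can be given. The base mean averages the normalized counts of a table's 4 libraries, and it summed to 17518487 in U2OS and 18966977 in HCT116. Levels given below for siMYBL1 and siCtrl were worked out from the base mean and the fold change, with both groups weighted equally, and are approximate. The lines differed in many, though not all, of the markers looked at. In the authors' deposited tables, 19 of 23 mesenchymal and bone markers were listed in U2OS and 12 in HCT116, and VIM (vimentin) had a base mean of 23722 in U2OS and 32.6 in HCT116. Of 20 epithelial markers, 7 were listed in U2OS and 16 in HCT116, with EPCAM at a base mean of 240.2 in U2OS and 5572 in HCT116 in the authors' deposited tables. KRT8 and KRT18, also epithelial markers, did not separate the lines, at 33149 and 14786 in U2OS and 31627 and 13134 in HCT116. The mesenchymal markers TWIST1 and COL1A2 were listed in HCT116 and not in U2OS. The lowest base mean listed was 30.2 in U2OS and 4.46 in HCT116, so being listed took a higher level in U2OS. Blood cell markers summed to a base mean of 168.3 in U2OS and 94.1 in HCT116, and PTPRC was listed in neither table.

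MYBL1 itself (chromosome 8) was lowered in both lines. Its level in normalized counts, implied by the authors' deposited tables, was 129 in siMYBL1 and 254 in siCtrl in U2OS, and 87.9 in siMYBL1 and 279.6 in siCtrl in HCT116, which leaves 50.7% of the control level in U2OS and 31.4% in HCT116. The log2 fold change in the authors' deposited tables was -0.98 (SE 0.31) in U2OS and -1.67 (SE 0.32) in HCT116. The difference of 0.69 had a 95% interval of -0.17 to 1.55, which holds 0 and also a knockdown weaker in U2OS by more than 1 log2 unit. MYBL2 stood at -0.29 (SE 0.19) in U2OS and -0.03 (SE 0.15) in HCT116, and MYB at 0.09 in U2OS and 0.22 in HCT116, in the authors' deposited tables. Neither passed the authors' test in either line.

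Far more genes passed the authors' test in U2OS than in HCT116, in the same direction for most, while few genes differed between the lines beyond the error of the difference. At the authors' adjusted p under 0.05, 766 of the 13472 genes (5.69%) were called in U2OS, 449 higher (3.33%) and 317 lower (2.35%). In HCT116 the authors' deposited table called 39 (0.289%), 16 higher (0.119%) and 23 lower (0.171%). At an unadjusted p under 0.05 the authors' deposited tables held 2280 genes in U2OS (16.9%) and 698 in HCT116 (5.18%). The difference itself passed for 8 genes (0.0594%), 6 with a higher (0.0445%) and 2 with a lower response in U2OS (0.0148%), by a 2-sided normal test with Benjamini-Hochberg adjustment over all 13472 genes. At an unadjusted p under 0.05 the difference took 645 genes (4.79%), 391 positive (2.9%) and 254 negative (1.89%). The 6 positive ones were PDGFC, SERPINB5, TGFBR2, SEL1L3, CADM4 and LRP8, and the 2 negative ones were LMNB1 and RSC1A1. All 8 calls rest on the normal test: with a t distribution of 4 degrees of freedom the count was 0, with 154 genes at an unadjusted p under 0.05, whereas it was 84 when the variances were rescaled to the median squared statistic.

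The error of single tables differed less between the lines than the responses did. Among the 10349 genes whose base mean reached 100 in both tables, the median SE in the authors' deposited tables was 0.215 in U2OS and 0.182 in HCT116. Over these genes the SD of the log2 fold changes was 0.367 in U2OS and 0.214 in HCT116, and 189 genes in U2OS and 18 in HCT116 lay beyond 1 log2 unit. With a median SE of the difference of 0.286, a typical gene of this level needed a difference of about 1.22 to pass. The smallest difference that passed was 1.02 in size. Across all 13472 genes the 2 responses had a Pearson r of 0.261 and a Spearman rho of 0.393, and over the 10349 genes the values were 0.491 and 0.483. These are correlations across genes, which are not independent replicates.

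**Figure D1:**
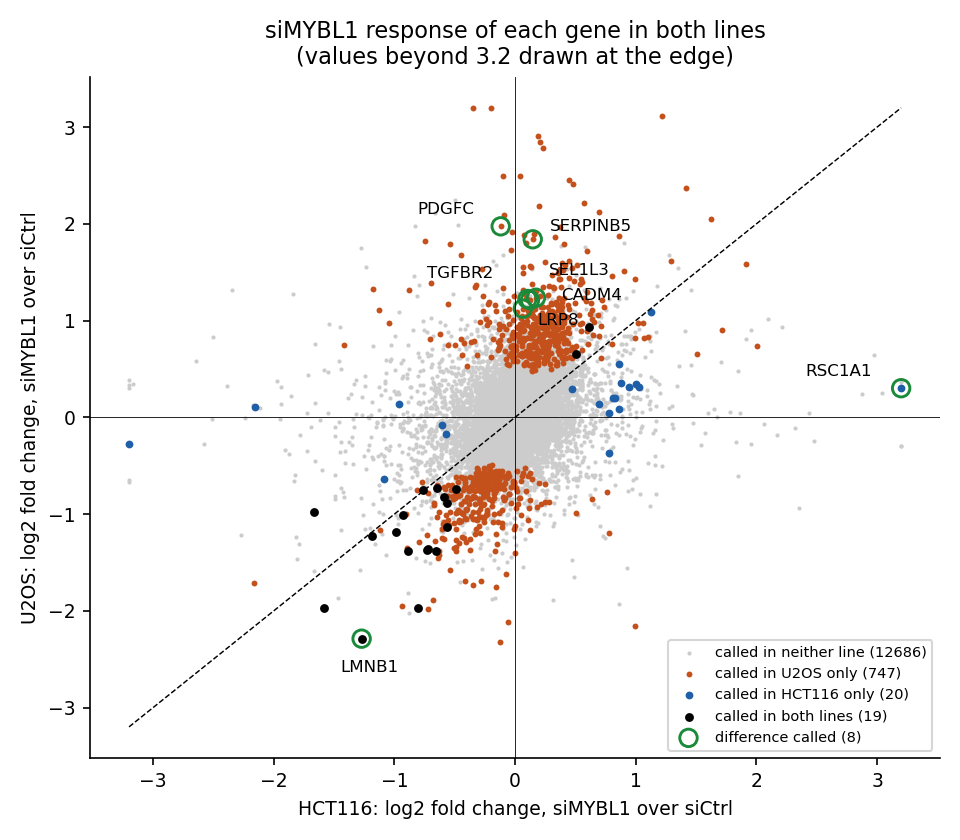
Log2 fold change of siMYBL1 over siCtrl for the 13472 genes listed in both tables, U2OS on the vertical and HCT116 on the horizontal axis, coloured by the authors' calls at adjusted p under 0.05; the dashed line marks equal responses and green rings mark the 8 genes whose difference passed. The genes called in U2OS spread along the vertical axis, and most lie on the same side of 0 in HCT116 but nearer to it.

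Genes called in U2OS mostly had the same sign in HCT116 at a smaller size. Of the 317 genes lower in U2OS, 286 (90.2%) were also below 0 in HCT116, and the median log2 fold change was -0.80 in U2OS and -0.29 in HCT116. Of the 449 genes higher in U2OS, 366 (81.5%) were above 0 in HCT116, with medians of 0.89 in U2OS and 0.22 in HCT116. Over all 13472 genes the signs matched for 65.5%. An unadjusted p under 0.05 with the same sign in HCT116 was found for 103 of the lower (32.5%) and 88 of the higher genes (19.6%), and with the opposite sign for 1 of each. Because these genes were chosen by their U2OS result, the larger U2OS value is in part set by the choice. The 16 genes called higher in HCT116 had a median of 0.31 in U2OS and 0.85 in HCT116. The 23 called lower in HCT116 had a median of -0.98 in U2OS and -0.80 in HCT116, and 17 of them (73.9%) were called lower in U2OS as well.

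The genes called in both lines numbered 19, which is 2.48% of the 766 in U2OS and 48.7% of the 39 in HCT116, and 17 were lower and 2 higher in both lines. None was called in opposite directions. After LMNB1, which is described with the differing genes, the clearest pair of falls belonged to PPIC, a cyclophilin of the secretory pathway. Its level was 254 in siMYBL1 and 996 in siCtrl in U2OS, and 140.4 in siMYBL1 and 421 in siCtrl in HCT116, as implied by the authors' deposited tables. PPIC stood at -1.97 (SE 0.21) in U2OS and -1.58 (SE 0.25) in HCT116 in the authors' deposited tables, a difference of -0.39 with an interval of -1.03 to 0.25. RCC2, a regulator of chromosome segregation and cell spreading, fell to -1.18 (SE 0.17) in U2OS and -0.99 (SE 0.16) in HCT116 in the authors' deposited tables. GINM1, a membrane protein, fell to -1.23 (SE 0.20) in U2OS and -1.19 (SE 0.21) in HCT116 in the authors' deposited tables, and its difference of -0.04 (interval -0.60 to 0.53) was among the smallest of all genes called in U2OS. SUDS3, a subunit of the Sin3 corepressor, was as close, with -0.75 (SE 0.20) in U2OS and -0.77 (SE 0.16) in HCT116 in the authors' deposited tables and a difference of 0.01 (interval -0.49 to 0.51).

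Others of the 17 lower genes stood further from 0 in U2OS than in HCT116, without a difference that passed. PDCD5, linked to apoptosis and to the folding of tubulin, had a level of 405 in siMYBL1 and 1590.4 in siCtrl in U2OS and 899.8 in siMYBL1 and 1568 in siCtrl in HCT116, as implied by the authors' deposited tables. Its difference was -1.17 (SE 0.31, adjusted p = 0.126) by the normal test with Benjamini-Hochberg adjustment. TAGLN2, an actin-binding protein, stood at -1.37 (SE 0.19) in U2OS and -0.73 (SE 0.16) in HCT116, and USP46, a deubiquitinase, at -1.38 (SE 0.21) in U2OS and -0.66 (SE 0.15) in HCT116, in the authors' deposited tables. RWDD1, ARMT1, VTA1, AASDHPPT and ATXN7L3B were lower in both lines too, between -1.38 and -0.73 in U2OS and between -0.89 and -0.56 in HCT116 in the authors' deposited tables. ODC1, the first enzyme of polyamine synthesis, stood at -1.13 (SE 0.17) in U2OS and -0.56 (SE 0.14) in HCT116 in the authors' deposited tables. MBTPS2, the site-2 protease that frees membrane-bound transcription factors, had -1.01 (SE 0.33) in U2OS and -0.93 (SE 0.20) in HCT116 in the authors' deposited tables. The 2 genes higher in both lines were MYC, the growth-promoting transcription factor, at 0.93 (SE 0.23) in U2OS and 0.61 (SE 0.14) in HCT116, and COTL1, an actin-binding protein, at 0.65 (SE 0.17) in U2OS and 0.51 (SE 0.13) in HCT116, in the authors' deposited tables. Of these, MBTPS2, ODC1, COTL1, VTA1, AASDHPPT and ATXN7L3B were named after their values were seen.

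**Figure D2:**
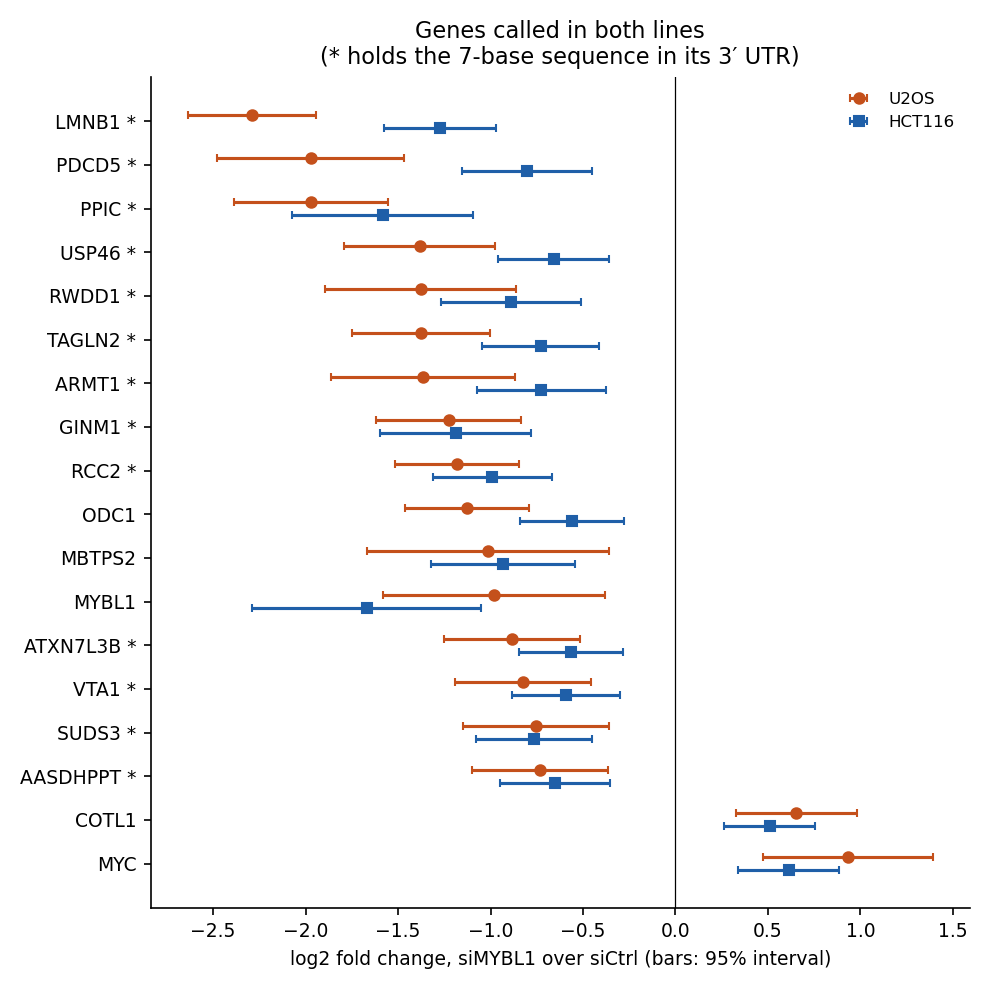
Log2 fold change of siMYBL1 over siCtrl, with 95% intervals from the authors' standard errors, for 18 of the 19 genes called in both lines, U2OS above HCT116 for each gene; stars mark genes whose 3′ UTR holds the 7-base sequence described in the text. Of the 16 lower genes drawn, 13 are starred, and the 2 higher genes, MYC and COTL1, are not.

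A 7-base sequence in the 3′ UTR was common among the genes lower in both lines. Of 14269 7-base sequences held by at least 200 of the 11767 genes with an annotated 3′ UTR, GAACTTA went with the lowest HCT116 responses, and it also ranked 1st in U2OS, whose table shares no library with that of HCT116; AACTTAA, which overlaps it by 6 bases, ranked 2nd in both. It stood in the longest annotated 3′ UTR (GENCODE release 29, hg38) of 1162 genes (9.88%), of 13 of the 17 genes lower in both lines (76.5%), of 114 of 308 lower in U2OS (37%), and of 23 of 425 higher in U2OS (5.41%). The 6 stretches shown are from 3′ UTRs of genes called lower in both lines and let the flanks be compared; they read 5′ to 3′ on the transcript strand, with the 7-base sequence in capitals.
LMNB1: tattgacactGAACTTAataactgt
PPIC: tagggactttGAACTTAaatatatc
GINM1: aaaaggtcaaGAACTTAacacttat
RCC2: gatgggactaGAACTTAagtgtgag
TAGLN2: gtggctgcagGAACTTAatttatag
PDCD5: attttatttgGAACTTAaaccaata

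In hg38 these lie at chr5:126836470-126836494 (LMNB1, forward strand), chr5:123023654-123023678 (PPIC, reverse), chr6:149591539-149591563 (GINM1, forward), chr1:17407762-17407786 (RCC2, reverse), chr1:159918340-159918364 (TAGLN2, reverse) and chr19:32586678-32586702 (PDCD5, forward, the first of 2 matches). The capitals begin at base 216 of the annotated 3′ UTR in LMNB1, 207 in PPIC, 711 in GINM1, 1314 in RCC2, 446 in TAGLN2 and 649 in PDCD5. Of the 17 genes lower in both lines, MBTPS2, ODC1 and the target MYBL1 were among those that did not hold it in that UTR. Whether the sequence matches either strand of the siRNA used was not tested, since the siRNA sequences are not known here.

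The sequence was picked on the HCT116 responses, so every HCT116 value given for it, and in part its share among genes called in both lines, restates that choice; the U2OS values were not used to pick it. Over all holders the U2OS responses lay a little below those of the other genes. Their median log2 fold change was -0.09 in U2OS and -0.08 in HCT116, while genes without it had 0.03 in U2OS and 0.01 in HCT116. Of the 1162 holders, 114 (9.81%) were called lower in U2OS and 14 (1.20%) in HCT116, and of the 10605 others 194 (1.83%) in U2OS and 8 (0.0754%) in HCT116. Holders had longer 3′ UTRs, with a median of 3276 bases against 1272, so the genes were also split by length into 3 groups of nearly equal size. Among the shortest UTRs the median of the 72 holders was -0.23 in U2OS and -0.19 in HCT116, against -0.01 in U2OS and 0.00 in HCT116 for the others. Holders among the longest UTRs were at -0.07 in U2OS and -0.05 in HCT116, against 0.08 in U2OS and 0.02 in HCT116. The median difference between the lines was -0.03 for holders and 0.02 for the others. Ranked by the difference, lowest first, the sequence stood 1st of 14269. The difference is made from those same responses, so this rank is not separate from the ranks in each line. Of the 233 genes with a 3′ UTR and an unadjusted p under 0.05 for a lower response in U2OS, 53 (22.7%) held it, as did 22 of the 368 with a higher response (5.98%). After siMYBL2, whose tables share the siCtrl libraries, holders had a median of 0.02 in U2OS and -0.02 in HCT116. The other genes had -0.003 in U2OS and -0.026 in HCT116. In the double knockdown holders had -0.11 in U2OS and -0.12 in HCT116, and the other genes 0.019 in U2OS and -0.022 in HCT116.

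**Figure D3:**
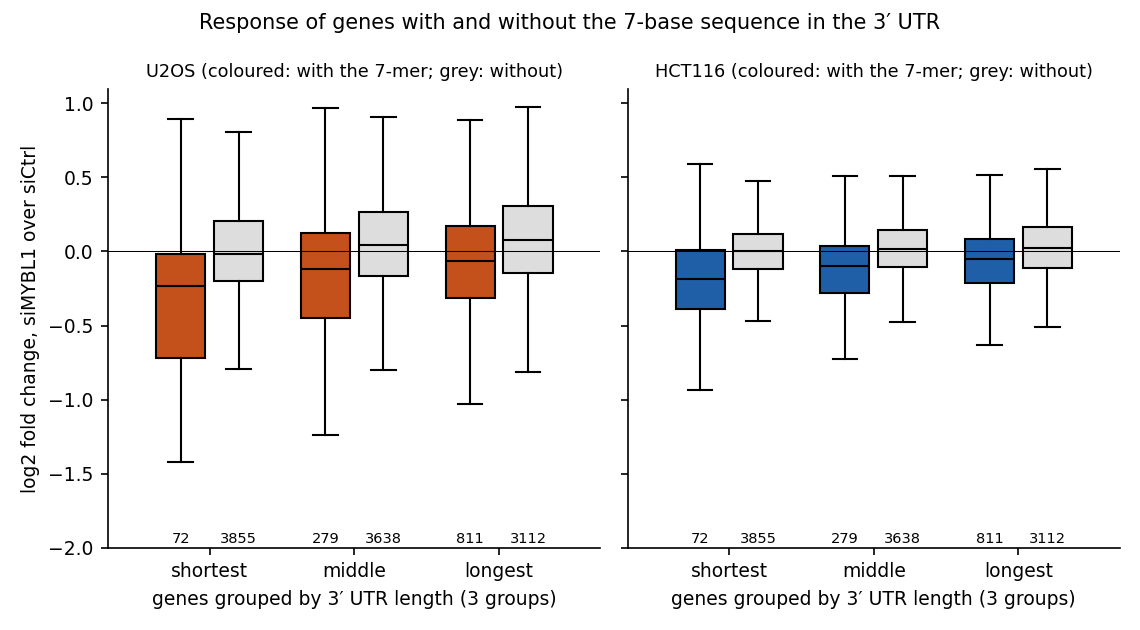
Log2 fold change of siMYBL1 over siCtrl in U2OS (left) and HCT116 (right) for genes with (coloured) and without (grey) the 7-base sequence in their 3′ UTR, in 3 groups of 3′ UTR length; boxes span the quartiles, the line is the median, whiskers reach to 1.5 times the box, single genes beyond them are not drawn, and the numbers of genes stand below. Within each length group the coloured box is lower in both lines, most so for the shortest UTRs.

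Of the 8 genes whose response differed, PDGFC, a secreted ligand of platelet-derived growth factor receptors, had the smallest p. Its level was 1541 in siMYBL1 and 392 in siCtrl in U2OS, and 197 in siMYBL1 and 214 in siCtrl in HCT116, as implied by the authors' deposited tables. That is a rise in U2OS to 1.97 (SE 0.26) beside -0.12 (SE 0.28) in HCT116 in the authors' deposited tables, and a difference of 2.09 (SE 0.38, adjusted p = 0.000375). SERPINB5, the serpin maspin, had a level of 305 in siMYBL1 and 85.2 in siCtrl in U2OS, and 828 in siMYBL1 and 748 in siCtrl in HCT116, as implied by the authors' deposited tables. The log2 fold change was 1.84 (SE 0.33) in U2OS and 0.15 (SE 0.17) in HCT116 in the authors' deposited tables, a difference of 1.69 (SE 0.37, adjusted p = 0.0178). Adjusted p-values of differences, here and below, come from the normal test with Benjamini-Hochberg adjustment over all 13472 genes.

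The other 4 genes with a higher response in U2OS include receptors and an adhesion molecule of the cell surface. TGFBR2, the type II receptor for TGF-beta, had a level of 3901 in siMYBL1 and 1671 in siCtrl in U2OS, and 1022 in siMYBL1 and 953 in siCtrl in HCT116, as implied by the authors' deposited tables, and a difference of 1.12 (SE 0.25, adjusted p = 0.0178). CADM4, an adhesion molecule of the immunoglobulin family, had 8069.5 in siMYBL1 and 3424 in siCtrl in U2OS, and 979 in siMYBL1 and 868 in siCtrl in HCT116, as implied by the authors' deposited tables, with a difference of 1.06 (SE 0.23, adjusted p = 0.0135). SEL1L3 had 2116 in siMYBL1 and 914 in siCtrl in U2OS, and 1717 in siMYBL1 and 1576 in siCtrl in HCT116, as implied by the authors' deposited tables, and LRP8, a receptor for apolipoprotein E and reelin, had 1303 in siMYBL1 and 598 in siCtrl in U2OS, and 1549 in siMYBL1 and 1481 in siCtrl in HCT116. Their differences were 1.09 (SE 0.25, adjusted p = 0.0294) for SEL1L3 and 1.06 (SE 0.25, adjusted p = 0.0360) for LRP8. In HCT116 the log2 fold changes of these 4 genes lay between 0.06 and 0.17 in the authors' deposited table, and none passed there. The 7-base sequence, held by 9.88% of genes with a 3′ UTR, was in none of these 6, a count near that share.

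LMNB1, the gene for lamin B1, a filament protein lining the inner nuclear membrane, fell in both lines and further in U2OS. Its level was 1138 in siMYBL1 and 5556 in siCtrl in U2OS, and 1435 in siMYBL1 and 3466 in siCtrl in HCT116, as implied by the authors' deposited tables. The log2 fold change was -2.29 (SE 0.18) in U2OS and -1.27 (SE 0.15) in HCT116 in the authors' deposited tables, and the difference was -1.02 (SE 0.23, adjusted p = 0.0294). Among the other 13 genes of the nuclear envelope and lamina list none was called in either line. That is near the background for 13 genes, since 5.69% of all genes were called in U2OS and 0.289% in HCT116. The lamin genes LMNA at -0.05 in U2OS and 0.20 in HCT116 and LMNB2 at 0.08 in U2OS and -0.03 in HCT116 stood close to 0 in the authors' deposited tables. On this list 1 member had an unadjusted p under 0.05 for a higher response in U2OS, against 2.9% of all genes. LMNB1 is also a late cell cycle gene and holds the 7-base sequence.

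RSC1A1 had the largest difference of the 8, in the other direction, and is uncertain. It was called in HCT116 at 3.90 (SE 0.64) and stood at 0.30 (SE 0.43) in U2OS in the authors' deposited tables, a difference of -3.60 (SE 0.77, adjusted p = 0.0135). Its level was 114 in siMYBL1 and 92.8 in siCtrl in U2OS, and 102 in siMYBL1 and 6.79 in siCtrl in HCT116, as implied by the authors' deposited tables. In the annotation used here the gene (chromosome 1, 15659869 to 15661722, hg38, forward strand) lies within DDI2 on the same strand (15617500 to 15669044), and all 1854 bases of its exons also lie in exons of DDI2, so how reads were shared between them bears on its value; this was not tested. DDI2 itself stood at -0.21 (SE 0.30) in U2OS and -0.52 (SE 0.16) in HCT116 in the authors' deposited tables, was called in neither, and had a difference of 0.31 with an interval of -0.36 to 0.97. RSC1A1 falls under the base mean of 100 in HCT116 and was named after its value was seen.

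**Figure D4:**
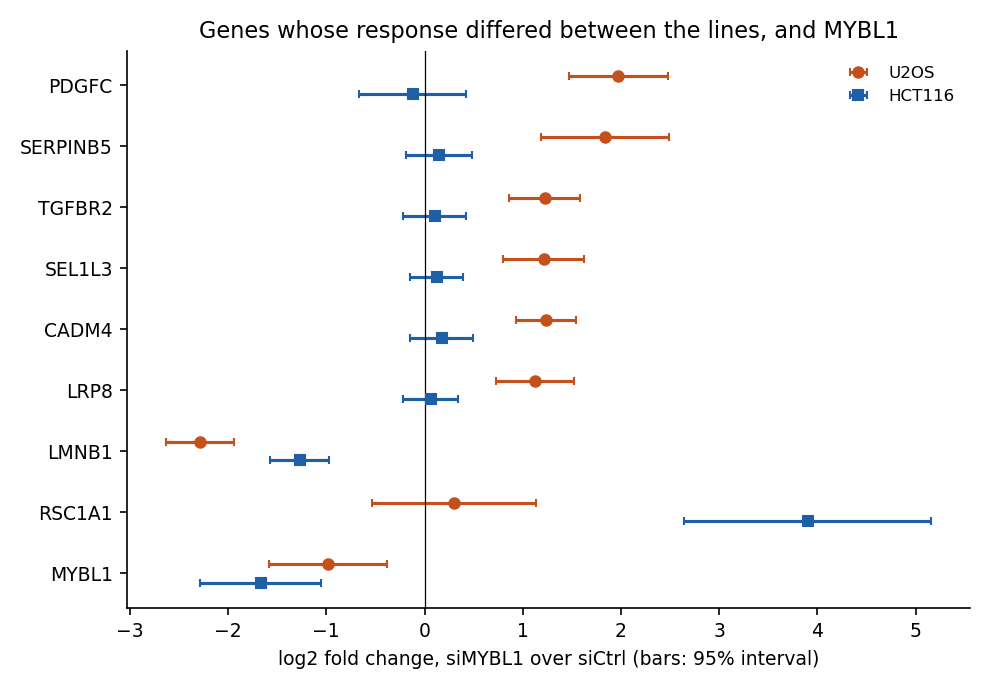
Log2 fold change of siMYBL1 over siCtrl, with 95% intervals from the authors' standard errors, for the 8 genes whose response differed between the lines and for MYBL1, U2OS above HCT116 for each gene. For the 6 uppermost genes the U2OS interval lies above 0 and the HCT116 interval holds 0, LMNB1 is below 0 in both lines, and the intervals of MYBL1 overlap.

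Late cell cycle genes made up 35 of the 317 calls for a lower level in U2OS. LMNB1 was the only one of them called in HCT116 and the only one whose difference passed. Of 90 G2/M genes listed in both tables, 35 (38.9%, against 2.35% of all genes) were called lower in U2OS and 1 in HCT116, LMNB1, and none was called higher. The median log2 fold change was -0.48 in U2OS and -0.20 in HCT116, against 0.02 and 0.00 for all genes. In HCT116 86 of the 90 lay below 0, as did 6644 of all 13472 genes. The difference was below 0 for 81, against 6506 of all 13472 genes, with a median of -0.28. Of the 90, 14 had an unadjusted p under 0.05 for a lower response in U2OS, against 1.89% of all genes. Without LMNB1 the median difference was also -0.28. The 83 members without the 7-base sequence had a median of -0.48 in U2OS and -0.19 in HCT116, and 31 of them were called lower in U2OS.

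AURKA, the centrosomal kinase Aurora A, fell in U2OS, with a level of 1514 in siMYBL1 and 3023 in siCtrl, and had 1249 in siMYBL1 and 1685 in siCtrl in HCT116, as implied by the authors' deposited tables, a difference of -0.57 (adjusted p = 0.965). PLK1, the polo-like kinase, fell in U2OS to -0.62 (SE 0.17) beside -0.18 (SE 0.15) in HCT116 in the authors' deposited tables, with a difference interval of -0.89 to 0.00. For CDK1, the kinase that drives entry into mitosis, the authors' deposited tables gave -0.58 (SE 0.20) in U2OS and -0.34 (SE 0.14) in HCT116, neither of which passed. CCNB1, its cyclin partner, had close values in both lines, -0.29 (SE 0.16) in U2OS and -0.32 (SE 0.13) in HCT116 in the authors' deposited tables, and the interval of the difference, -0.36 to 0.43, bounds it within 0.43 log2 units. TOP2A, topoisomerase II alpha, stood at -0.33 (SE 0.16) in U2OS and -0.36 (SE 0.13) in HCT116 in the authors' deposited tables, with an interval of -0.37 to 0.44. Larger falls in U2OS were those of OIP5, needed to load centromeric histone, at -1.95 (SE 0.32) beside -0.94 (SE 0.28) in HCT116, HMMR, a spindle protein, at -1.05 (SE 0.19) beside -0.42 (SE 0.15), and DEPDC1 at -1.01 (SE 0.19) beside -0.24 (SE 0.14), in the authors' deposited tables. The adjusted p of their differences was 0.733, 0.563 and 0.250.

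Promoters of the G2/M genes often held the cell cycle genes homology region (CHR), the element that MuvB binds, here searched as TTTGAA on either strand from 250 bases before to 50 after the start. It stood in 51 of 78 G2/M promoters found (65.4%), against 9.54% of the 10128 promoters of all genes compared. The share was 66.7% for the 30 called lower in U2OS and 64.6% for the 48 not called. Both stretches shown are from promoters of genes called lower in U2OS and serve as examples of the element, which is in capitals; they are from RefSeq (GRCh38.p14), written on the gene's strand.
HMMR: gtggggagaTTTGAAtttgaaacc
NCAPG: cgggaattaTTTGAAcgttcgagc

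These lie at chr5:163460595-163460618 (HMMR, forward strand) and chr4:17810935-17810958 (NCAPG, forward strand), with the element in capitals beginning 28 and 35 bases before the start. In HMMR another match follows directly and is left in lower case. A MYB motif, AACNG, stood in 85.9% of G2/M promoters and in 74% of all, on either strand. A match in a promoter describes its letters and does not show that a factor binds there.

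A smaller share of G1/S genes, the E2F targets that prepare replication, was called in U2OS. Of 68 listed, 13 (19.1%, against 2.35% of all genes) were called lower in U2OS and 0 in HCT116. There the share of all genes was 0.171% lower and 0.119% higher. A count of 0 in HCT116, for this list or the smaller ones below, is thus near the background. Over all lists, the members called in HCT116 were LMNB1, MYBL1 and MYC. The medians of the G1/S list were -0.38 in U2OS and -0.08 in HCT116. Of its 68 differences 59 were below 0, against 6506 of all 13472 genes, with a median of -0.33. An unadjusted p under 0.05 for a lower response in U2OS was found for 14, against 1.89% of all genes. E2F2, an activator of this programme, fell in U2OS to -0.93 (SE 0.23) beside 0.18 (SE 0.21) in HCT116 in the authors' deposited tables (difference -1.12 (adjusted p = 0.155)). ATAD2, a chromatin regulator, had -1.06 (SE 0.17) in U2OS and -0.32 (SE 0.13) in HCT116, and MCM6, a subunit of the replicative helicase, -0.79 (SE 0.17) in U2OS and -0.05 (SE 0.15) in HCT116, in the authors' deposited tables. Their differences were -0.74 (adjusted p = 0.191) and -0.74 (adjusted p = 0.250). The ribonucleotide reductase gene RRM2 fell in U2OS to -0.74 beside -0.22 in HCT116, whereas TYMS, thymidylate synthase, stood at -0.18 in U2OS and -0.10 in HCT116 in the authors' deposited tables. None of the 12 genes of the MuvB and DREAM list was called in either line. That is near the background for 12 genes, since 5.69% of all genes were called in U2OS and 0.289% in HCT116. FOXM1, placed on that list, stood at -0.34 (SE 0.18) in U2OS and 0.10 (SE 0.15) in HCT116 in the authors' deposited tables.

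Some targets of p53, the tumour suppressor that is intact in both lines, were called higher in U2OS. Of 32 listed, 5 (15.6%, against 3.33% of all genes) were called higher in U2OS. In HCT116 0 were, near the 0.119% of all genes called higher there. The medians were 0.39 in U2OS and 0.01 in HCT116. The difference was above 0 for 30, against 51.7% of all genes. The called members were SESN2, GADD45A, TNFRSF10B, FAS and PLK3. GADD45A, a growth arrest gene, had 1.18 (SE 0.23) in U2OS and 0.30 (SE 0.16) in HCT116 in the authors' deposited tables (difference 0.88 (adjusted p = 0.296)). TNFRSF10B, a death receptor for TRAIL, had 0.88 (SE 0.23) in U2OS and 0.26 (SE 0.15) in HCT116 in the authors' deposited tables. CDKN1A, the p21 inhibitor of cyclin-dependent kinases, stood at 0.96 (SE 0.57) in U2OS and 0.22 (SE 0.13) in HCT116 in the authors' deposited tables and passed in neither. The wide interval of its difference, -0.42 to 1.88, leaves its response in U2OS poorly resolved. SESN2 is on the amino acid stress list as well.

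Genes of amino acid stress held more genes called higher in U2OS than any other list. They are induced through ATF4 when amino acids run short or the endoplasmic reticulum is stressed. Of 38 listed, 19 (50%, against 3.33% of all genes) were called higher in U2OS. In HCT116 0 were, near the 0.119% of all genes called higher there. The medians were 0.76 in U2OS and 0.18 in HCT116. The difference was above 0 for 35 of 38, against 51.7% of all genes, and its median was 0.51. Of the 38, 16 had an unadjusted p under 0.05, all positive, against 2.9% of all genes, but none passed adjusted. DDIT4, an inhibitor of mTORC1, had a level of 2202 in siMYBL1 and 691 in siCtrl in U2OS, and 2978 in siMYBL1 and 4055 in siCtrl in HCT116, as implied by the authors' deposited tables. Its difference was 2.12 (SE 0.59, adjusted p = 0.155). SESN2, which senses leucine, had 1459 in siMYBL1 and 497 in siCtrl in U2OS, and 571 in siMYBL1 and 519.8 in siCtrl in HCT116, as implied by the authors' deposited tables, with a difference of 1.42 (SE 0.38, adjusted p = 0.110).

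Enzymes and transporters of amino acids followed. ASNS, asparagine synthetase, stood at 1.26 in U2OS and 0.21 in HCT116, PSAT1 of serine synthesis at 0.97 and 0.15, and the glutamine transporter SLC1A5 at 1.08 and 0.22, in the authors' deposited tables. The stress factor DDIT3 (CHOP) was at 1.53 in U2OS and 0.38 in HCT116, TRIB3 at 2.18 and 0.20, and the cytokine GDF15 at 2.85 and 0.21, in the authors' deposited tables. NUPR1, a stress-induced chromatin protein, was at 1.58 (SE 0.21) in U2OS and 1.91 (SE 0.92) in HCT116 in the authors' deposited tables, but its base mean in HCT116 was 16.8. ATF4 itself, whose activity is set mostly by translation, stood at 0.35 (SE 0.17) in U2OS and -0.05 (SE 0.17) in HCT116 in the authors' deposited tables and was not called.

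The element that ATF4 and C/EBP factors bind together, searched as TGATGNAA on either strand, stood in 8 of 33 promoters of this list (24.2%), in 25 of 342 promoters of genes higher in U2OS (7.31%) and in 1.63% of all. It stood in 4 of the 17 called members with a promoter and in none of the 5 promoters of genes with a differing, higher response. Stretches from 2 of the 4 are shown, both from genes for enzymes; the element, or its reverse complement, is in capitals.
ASNS: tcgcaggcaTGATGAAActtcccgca
CHAC1: cccctgccgTTGCATCActcctgcca

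These are RefSeq promoter stretches (GRCh38.p14) at chr7:97872460-97872485 (ASNS, reverse strand) and chr15:40953253-40953278 (CHAC1, forward strand), with the capitals beginning 68 and 209 bases before the start. CHAC1, which degrades glutathione, stood at 1.83 in U2OS, where it was called, and -0.75 in HCT116 in the authors' deposited tables.

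Other stress and metabolic lists held fewer calls. They are set here against the 3.33% of all genes called higher in U2OS and the 0.119% in HCT116. A count of 0 in HCT116 is near that share for lists of this size. Of 24 cholesterol synthesis genes, 7 (29.2%) were called higher in U2OS and 0 in HCT116, with medians of 0.37 in U2OS and 0.05 in HCT116. The difference was above 0 for 21 of the 24, against 51.7% of all genes. MSMO1, a sterol demethylase, had 1.04 (SE 0.19) in U2OS and 0.15 (SE 0.13) in HCT116 in the authors' deposited tables (difference 0.89 (adjusted p = 0.0795)). HMGCS1, which makes a precursor of mevalonate, was at 0.80 in U2OS and 0.07 in HCT116 in the authors' deposited tables.

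Of 25 genes of the unfolded protein response, 5 (20%) were called higher in U2OS and 0 in HCT116, with medians of 0.36 in U2OS and 0.15 in HCT116. A count of 0 in HCT116, here and for the lists that follow, is near the 0.119% of all genes called higher there. HERPUD1, of endoplasmic reticulum degradation, had 1.52 (SE 0.25) in U2OS and 0.40 (SE 0.52) in HCT116 in the authors' deposited tables, and DNAJB9, a chaperone of that compartment, 1.20 (SE 0.34) in U2OS and -0.22 (SE 0.25) in HCT116. The abundant chaperones CALR and HSP90B1 were not called, at 0.05 and 0.21 in U2OS and 0.05 and 0.18 in HCT116 in the authors' deposited tables. Of 29 lysosome and autophagy genes, 4 (13.8%) were called higher in U2OS and 0 in HCT116, among them GABARAPL1, an autophagosome protein, at 0.87 in U2OS and 0.03 in HCT116 in the authors' deposited tables. Of 18 NRF2 and oxidative stress genes, 3 (16.7%) were called higher in U2OS and 0 in HCT116, HMOX1 (haem oxygenase) being at 1.07 in U2OS and 0.39 in HCT116 in the authors' deposited tables. None of 13 cytosolic heat shock genes was called in either line, near the background of 5.69% in U2OS and 0.289% in HCT116. Of their differences, 12 of 13 were below 0, against 6506 of all 13472 genes. The median log2 fold changes were -0.19 in U2OS and 0.00 in HCT116.

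Ligands and feedback genes of growth factor signalling were among the genes called higher in U2OS. Of 10 genes of the EGF receptor family list, 6 (60%, against 3.33% of all genes) were called higher in U2OS. In HCT116 0 were, near the 0.119% of all genes called higher there. HBEGF, a ligand of the EGF receptor, had a level of 902 in siMYBL1 and 304 in siCtrl in U2OS, and 222 in siMYBL1 and 167 in siCtrl in HCT116, as implied by the authors' deposited tables, and a difference of 1.16 (adjusted p = 0.250). AREG, another ligand, was at 1.97 (SE 0.52) in U2OS and 0.37 (SE 0.40) in HCT116 in the authors' deposited tables, with a base mean of 54.7 in U2OS and 2611 in HCT116. The receptor EGFR was called higher in U2OS too, with a difference of 0.75 (adjusted p = 0.968), as were the ligands TGFA at 0.85 in U2OS and 0.24 in HCT116 and NRG1 at 0.97 in U2OS and 0.30 in HCT116, and ERRFI1, an inhibitor of the receptor, at 0.94 in U2OS and 0.28 in HCT116, in the authors' deposited tables. The HCT116 value of NRG1 had an SE of 0.92 at a base mean of 17.7. Of 15 feedback genes of the ERK pathway, 2 (13.3%) were called higher in U2OS, and the medians were 0.66 in U2OS and 0.00 in HCT116. ETV5, a transcription factor induced by ERK, had 1.12 (SE 0.28) in U2OS and -0.05 (SE 0.15) in HCT116 in the authors' deposited tables (difference 1.16 (adjusted p = 0.137)). Of 23 AP-1 and immediate early genes, 3 (13.0%) were called higher in U2OS (FOSL1, MAFF and MYC) and 1 in HCT116 (MYC), and the median difference was 0.00.

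The TGF-beta family held calls in both directions in U2OS. Of 27 genes, 3 were called higher and 5 lower there (29.6% in all, against 5.69% of all genes). In HCT116 0 were called, near the 0.289% of all genes. The median difference was -0.02. TGFBR2, the distant ligand GDF15 and LTBP2, which binds latent complexes, were higher, and BMP4, TGFB2, TGFBR3, SMAD6 and LTBP1 were lower in U2OS. BMP4, a bone morphogenetic protein, had a level of 1832 in siMYBL1 and 3319.7 in siCtrl in U2OS, and 1765 in siMYBL1 and 1618 in siCtrl in HCT116, as implied by the authors' deposited tables. Its difference was -0.98 (SE 0.25, adjusted p = 0.0578). TGFBR3, the co-receptor betaglycan, had -1.40 (SE 0.33) in U2OS and -0.00 (SE 0.32) in HCT116 in the authors' deposited tables, a difference of -1.40 (adjusted p = 0.316).

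Among inflammatory lists, secreted cytokines and chemokines had the highest share of calls of all lists. Of 8 listed in both tables, 5 (62.5%, against 3.33% of all genes) were called higher in U2OS. In HCT116 0 were, near the 0.119% of all genes called higher there. The medians were 0.88 in U2OS and 0.26 in HCT116, with a median difference of 0.84. The 5 called were VEGFA, LIF, CXCL8, CCL20 and IL11, and none of their differences passed. The list has 28 genes in all, and the median SE of the difference for the 8 compared was 0.785. In HCT116 the base mean was 5.72 for IL32, 12.6 for CCL20 and 22.9 for IL11, so their responses there are poorly resolved. VEGFA, an inducer of vessel growth, was at 1.09 in U2OS and 0.14 in HCT116, and LIF, a cytokine of the interleukin 6 family, at 0.79 in U2OS and 0.29 in HCT116, in the authors' deposited tables. Of 25 NF-kB targets and subunits, 4 (16%) were called higher in U2OS and 0 in HCT116, again near the 0.119% of all genes there. The median difference was 0.01. TRAF1, an adaptor of TNF receptors, had 2.91 (SE 0.35) in U2OS and 0.19 (SE 0.85) in HCT116 in the authors' deposited tables, with a base mean of 19.2 in HCT116, and a difference of 2.72 (adjusted p = 0.357). NFKBIE, an inhibitor of NF-kB, had a level of 518 in siMYBL1 and 242 in siCtrl in U2OS, and 266 in siMYBL1 and 297 in siCtrl in HCT116, as implied by the authors' deposited tables, and a difference of 1.26 (adjusted p = 0.147). Of 27 interferon-stimulated genes, 2 were called, both lower in U2OS (7.41%, against 2.35% of all genes), and IFIT1 stood at -1.70 (SE 0.35) in U2OS and -0.41 (SE 0.37) in HCT116 in the authors' deposited tables.

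Of 30 matrix and integrin genes, 8 (26.7%, against 3.33% of all genes) were called higher in U2OS. In HCT116 0 were, near the 0.119% of all genes called higher there. The medians were 0.37 in U2OS and 0.12 in HCT116. COL1A1, the main chain of type I collagen, had a level of 33293 in siMYBL1 and 20009 in siCtrl in U2OS, and 402 in siMYBL1 and 411 in siCtrl in HCT116, as implied by the authors' deposited tables (difference 0.77 (adjusted p = 0.638)). LAMB3, a laminin chain, was at 0.76 (SE 0.17) in U2OS and 0.81 (SE 0.30) in HCT116, and THBS1, thrombospondin 1, at 0.97 (SE 0.22) in U2OS and 1.02 (SE 0.33) in HCT116, in the authors' deposited tables. Both were called in U2OS and not in HCT116, yet their differences of -0.05 (interval -0.73 to 0.64) and -0.05 (interval -0.83 to 0.73) were among the 6 smallest of the genes called in U2OS. The same held for EXOC1, of the exocyst, at -0.70 in U2OS and -0.64 in HCT116 in the authors' deposited tables. ARHGAP33 stood at -1.17 in U2OS and -1.12 in HCT116 there, but its HCT116 value had an SE of 1.01. The interval of its difference, -2.11 to 2.01, leaves the comparison poorly resolved. Of 10 mesenchymal and bone markers listed in both, 4 (40%, against 3.33% of all genes) were called higher in U2OS. Of 7 epithelial markers and 9 keratins, lists that share KRT8 and KRT18, 0 were called in either line. That is near the background for lists of this size, since 5.69% of all genes were called in U2OS and 0.289% in HCT116.

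Mitochondrially encoded transcripts and the RNA interference machinery were checked as signs of RNA composition and of the siRNA pathway. All 15 mitochondrial genes lay above 0 in HCT116 and 13 of 15 in U2OS. Of all 13472 genes, 6828 did in HCT116 and 7029 in U2OS. The medians of the 15 were 0.19 in U2OS and 0.25 in HCT116, and the median difference was -0.07. None of the 15 was called, near the background of 5.69% in U2OS and 0.289% in HCT116. The part of mitochondrial transcripts in the other results was not tested. Of 13 RNA interference genes, DICER1 alone was called (7.69%, near the 5.69% of all genes called in U2OS). It was lower in U2OS, at -0.61 (SE 0.20) beside -0.19 (SE 0.16) in HCT116 in the authors' deposited tables, and AGO2 stood at 0.03 in U2OS and 0.32 in HCT116.

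**Figure D5:**
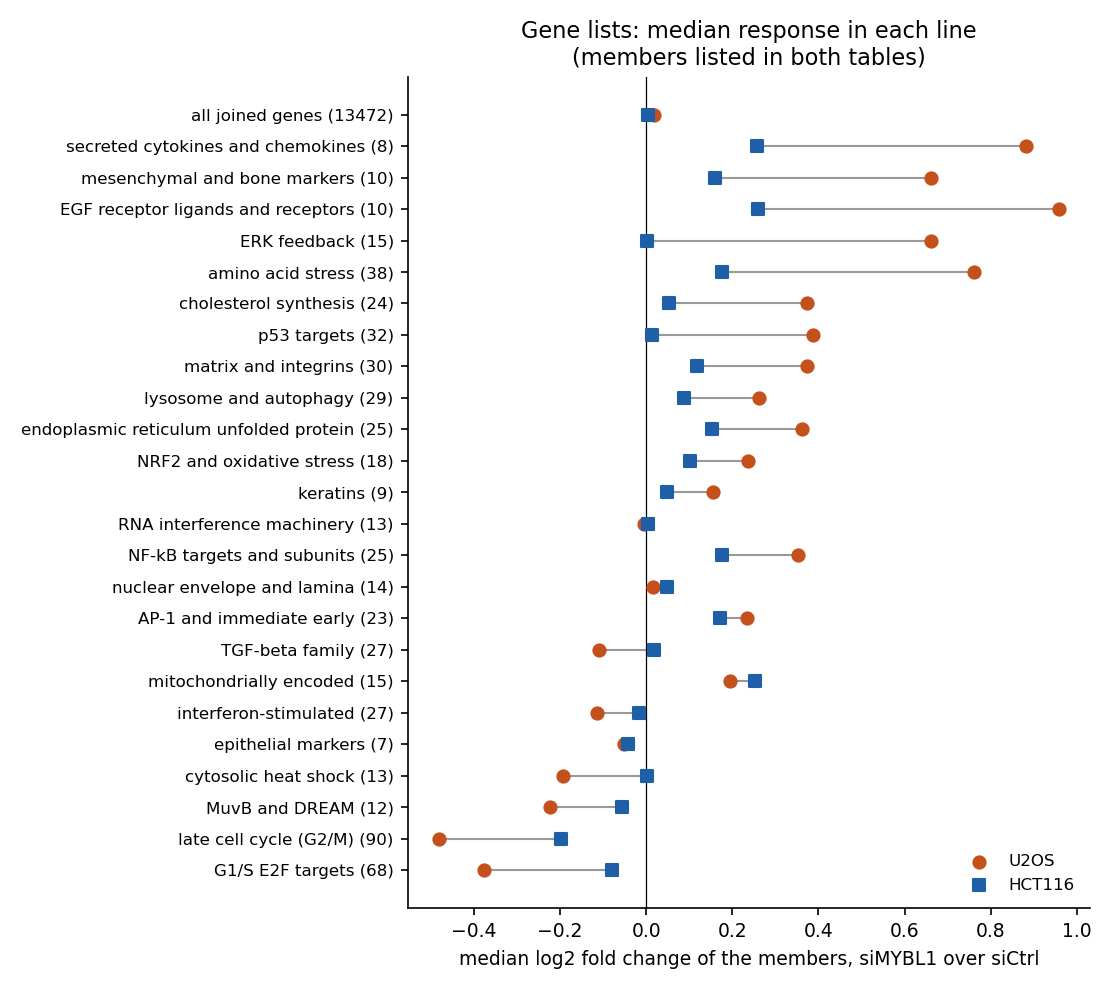
Median log2 fold change of siMYBL1 over siCtrl in U2OS (circles) and HCT116 (squares) for the members of each gene list and, at the top, for all 13472 genes; the number of members listed in both tables is in parentheses, lists are ordered by the median difference, and a grey line joins the lines' values. In U2OS the G2/M and G1/S medians lie furthest below 0, and those of the EGF receptor family, the secreted cytokines and chemokines and amino acid stress furthest above it, and the HCT116 squares lie nearer 0 for most lists.

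Genes called in HCT116 and not in U2OS numbered 20, and apart from RSC1A1 none of their differences passed; they were named after their values were seen. KLK10, a secreted serine protease, had nearly the same value in both lines, 1.09 (SE 0.50) in U2OS and 1.12 (SE 0.25) in HCT116 in the authors' deposited tables. F3, tissue factor, was at 0.32 (SE 0.31) in U2OS and 0.94 (SE 0.24) in HCT116, and LRRK1, a kinase, at 0.04 (SE 0.18) in U2OS and 0.78 (SE 0.16) in HCT116, in the authors' deposited tables. UBA6, a ubiquitin-activating enzyme, had a level of 1169 in siMYBL1 and 1066 in siCtrl in U2OS, and 1046 in siMYBL1 and 2036 in siCtrl in HCT116, as implied by the authors' deposited tables, and the highest difference among those of the 20 genes whose base mean reached 100 in both tables, 1.09 (SE 0.29, adjusted p = 0.110).

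Genes listed in 1 table cannot be compared. There were 1291 listed in U2OS and not in HCT116, of which 59 were called higher and 18 lower, and 3851 listed in HCT116 and not in U2OS, of which 4 were called higher and 2 lower. The lowest base mean listed was 30.2 in U2OS and 4.46 in HCT116. Of the calls in U2OS among the compared genes, 96.6% were protein-coding against 88.4% of all, and 3.39% were long non-coding against 10.01%, while all 8 differing genes were protein-coding.

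Of the 8 differing genes, 7 have values in both lines after double knockdown of MYBL1 and MYBL2, and RSC1A1 has none in HCT116. That comparison shares its siCtrl libraries with the siMYBL1 tables, so the values are set side by side and not tested. In the authors' deposited tables SERPINB5 was at 2.63 in U2OS and 1.30 in HCT116, TGFBR2 at 1.55 in U2OS and 0.32 in HCT116, PDGFC at 1.02 in U2OS and -0.02 in HCT116, and LRP8 at 0.94 in U2OS and 0.06 in HCT116. SEL1L3 was at 0.80 in U2OS and -0.19 in HCT116, CADM4 at 0.58 in U2OS and -0.04 in HCT116, and LMNB1 at -2.74 in U2OS and -1.92 in HCT116, in the authors' deposited tables. The siMYBL2 tables share those siCtrl libraries too. After siMYBL2 alone SERPINB5 was at 0.96 in U2OS and 0.43 in HCT116, PDGFC at -0.59 in U2OS and 0.15 in HCT116, LRP8 at 0.50 in U2OS and -0.15 in HCT116 and TGFBR2 at 0.37 in U2OS and 0.19 in HCT116, in the authors' deposited tables. SEL1L3 was at -0.02 in U2OS and -0.32 in HCT116, CADM4 at -0.13 in U2OS and -0.16 in HCT116 and LMNB1 at -0.19 in U2OS and -0.08 in HCT116, in the authors' deposited tables.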

How the data were processed

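The data were the authors' own comparisons of siMYBL1 with siCtrl, 1 table for each line, from 2 libraries a group; no table with values per library was used. The submitters' processing notes name cutadapt 4.4, Salmon 1.10.1, DESeq2 1.40 and the build hg38, without order or settings; the filters and annotation are not known here. Per the file headers, the base mean (a signal) averages normalized counts across a table's 4 libraries. The authors deposited log2 fold changes, siMYBL1 over siCtrl, each with a standard error. Their ratio, the Wald statistic, is deposited as a score. The authors' adjusted p-value equals a Benjamini-Hochberg adjustment of the deposited p-value over the genes of the table.

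Genes were joined by identifier (759 of the 13472 have no gene name). The difference was tested with a 2-sided normal test (Python 3.11.15, pandas 2.3.3, scipy 1.17.1), with p-values adjusted over all joined genes by Benjamini-Hochberg at 0.05. The code was run on data simulated with normal errors of the deposited size. That check cannot show whether standard errors from 2 libraries a group suit a normal test. Where the labels call libraries biological replicates, nothing says how separate they were, so the authors' p-values measure only the spread between these libraries, which may be technical.

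The genes compared, the 26 gene lists and the tests were chosen with earlier results of these data known. The rule for named genes took MYBL1, MYBL2, MYB, LMNB1, CDK1, CCNB1, PLK1, AURKA, TOP2A and CDKN1A; the 10 highest and 10 lowest differences that passed with a base mean of at least 100 in both tables; up to 4 passing members of a list, or else its 2 with the largest base mean in U2OS; up to 10 genes called in both lines; and 6 called in U2OS with the smallest difference. Members of lists named beyond it were taken from those called in U2OS, apart from LMNA, LMNB2 and the markers of the lines. Like the promoter examples, they were named after their values were seen. List counts have no test of the list. Alternatives were a base mean of at least 100, median centring, a t distribution, rescaled variances, a test against 0.5, other thresholds and leaving out 46 genes with near-identical copies. Results for some genes are not reported here.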

Additional observations from a re-analysis of the deposited data

Results flagged for a closer look

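The siMYBL1 response differed between U2OS and HCT116, by the test of the difference itself, for 8 genes, and all are listed here as U2OS minus HCT116 on the log2 scale. PDGFC differed by 2.09, SERPINB5 by 1.69, TGFBR2 by 1.12, SEL1L3 by 1.09, CADM4 by 1.06 and LRP8 by 1.06. LMNB1 differed by -1.02, with a fall in both lines. RSC1A1 differed by -3.60, and all its exon bases also lie in exons of DDI2.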

How the results depend on the processing

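The count of genes whose response differed (8, with 6 higher and 2 lower in U2OS, 2 of them on a list) was 0 in total, 0 higher, 0 lower and 0 on a list with a t distribution of 4 degrees of freedom, and likewise 0 when the difference was tested against 0.5, with 63 genes at an unadjusted p under 0.05 there. With variances rescaled by 0.737 it was 84, with 61 higher, 23 lower and 23 on a list, and all 8 remained. At an adjusted p under 0.01 it was 1 (PDGFC), with 1 higher, 0 lower and 0 on a list, and at 0.10 it was 16, with 11 higher, 5 lower and 4 on a list. With a base mean of at least 100 in both tables it was 7, of which 1 lower, since RSC1A1 is left out. Centring each table on its median gave 10, with 7 higher and 3 lower, and leaving out 46 genes with near-identical copies gave 8. Adjusting over the joined genes gave 44 calls in HCT116 and 766 in U2OS. With any annotated 3′ UTR the gap between genes with and without the 7-base sequence was -0.11 in U2OS and -0.08 in HCT116, against -0.13 and -0.09. None of these alternatives reversed the sign of a difference that passed or of the gap for the 7-base sequence. Signs of differences that did not pass were not checked. Centring shifts every difference slightly, so those very close to 0, such as that of SUDS3, can change sign. The causes of these moves were not tested. No paired analysis was possible because the tables hold no values per library; leaving out replicates was not run for the same reason. Depth per library is unknown, and a gene that did not pass may still differ by an amount within its interval.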

Other observations

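A few more genes came close to passing and were chosen after their values were seen. SLC12A7, a potassium chloride cotransporter, had a level of 1577 in siMYBL1 and 3297 in siCtrl in U2OS, and 945 in siMYBL1 and 879 in siCtrl in HCT116, as implied by the authors' deposited tables, and a difference of -1.17 (SE 0.28, adjusted p = 0.0536) by the normal test with Benjamini-Hochberg adjustment. SH2B3, an adaptor that restrains cytokine receptor signalling, had 1504 in siMYBL1 and 603 in siCtrl in U2OS, and 929 in siMYBL1 and 888 in siCtrl in HCT116, as implied by the authors' deposited tables, and a difference of 1.26 (adjusted p = 0.0572). NGRN had a difference of 0.89 (adjusted p = 0.0572). CD2AP, an adaptor linking membrane proteins to actin, was called lower in U2OS at -1.37 (SE 0.22) and stood at -0.38 (SE 0.15) in HCT116 in the authors' deposited tables, a difference of -0.99 (adjusted p = 0.126). H2AC19 is listed at 23.52 in U2OS and -0.20 in HCT116 in the authors' deposited tables, but it has a near-identical copy, and these values are uncertain.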
